A study of Homo sapiens with 2 samples.

Results

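The genes for LMO1, LMO2, LMO3, LMO4, LDB1, LDB2, SSBP2 and SSBP3 were examined in a NeuroD1 ChIP-seq peak list from IMR-32, a MYCN-amplified neuroblastoma cell line. All peaks that overlapped the RefSeq body of one of these 8 genes, or lay up to 50 kb from either end, were taken. This rule gave 10 of the 6183 peaks, at 4 of the 8 genes. SSBP3 had 6 peaks, LDB1 had 2, and SSBP2 and LMO1 had 1 each. LMO2, LMO3, LMO4 and LDB2 had none.

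LIM-only (LMO) proteins carry LIM domains and no DNA-binding domain. They act as bridges that bring bHLH factors and GATA factors together on DNA. LDB proteins bind the LIM domains and associate with each other, so that they can join complexes on distant sites, and SSBP proteins bind LDB proteins and protect them from degradation. LMO1 is a susceptibility gene of neuroblastoma, and LMO3 has been studied in this tumor as a partner of the bHLH factor HEN2, encoded by NHLH2. NeuroD1 is itself a bHLH factor, which dimerizes with E-proteins such as TCF3 and binds E-boxes, the motif CANNTG.

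The cells were labelled WT and no treatment was named. A single NeuroD1 ChIP library was used, and the input, meaning chromatin that did not pass the antibody step, was not analysed here. There was no replicate, so no test between samples was possible, and all intervals below cover counting error in this library only. The sample label names a NeuroD1 antibody, whereas the ChIP-seq paragraph of the study's methods names one against H3K27Ac. The study's antibody list includes a NeuroD1 antibody of the maker and number on the label. The paper also reports that NeuroD1 motifs were enriched at the binding sites of its NeuroD1 ChIP-seq. The list was used as labelled. Expression was not measured in this series. The paper reports RNA sequencing of IMR-32 cells with and without NeuroD1 knockdown, which was not used here. Neither the identity of the cells nor the expression of these genes was therefore checked. Over the whole list, the fold enrichment (the ChIP pileup at the summit divided by the background there, each raised by 1) had a median of 6.79, and its quartiles were 5.79 and 8.68. The number of ChIP reads at the summit, computed from the deposited values, had a median of 17. The total depth of the library is unknown.

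Promoter sequences were set beside the peaks first, since 1 of the 10 peaks covered a promoter of one of these genes. RefSeq windows of 300 bases, from 250 before to 50 after an annotated start, were given for 6 of the 8 genes, with none for LMO2 and LDB2. A window was overlapped by a peak at 1 of these 6 genes, SSBP3, against 13.7% of the protein-coding genes with a window. The 4 windows shown here are the promoter of SSBP3 that was bound, the promoter of SSBP3 that was not, the window nearest to the strong SSBP2 peak, and an LMO3 promoter without any peak that nevertheless holds the E-box of NeuroD1. All are written 5′ to 3′ in GRCh38.p14, and capitals mark each CANNTG, which reads as a CANNTG on both strands.
SSBP3, chr1:54406345-54406644, reverse strand: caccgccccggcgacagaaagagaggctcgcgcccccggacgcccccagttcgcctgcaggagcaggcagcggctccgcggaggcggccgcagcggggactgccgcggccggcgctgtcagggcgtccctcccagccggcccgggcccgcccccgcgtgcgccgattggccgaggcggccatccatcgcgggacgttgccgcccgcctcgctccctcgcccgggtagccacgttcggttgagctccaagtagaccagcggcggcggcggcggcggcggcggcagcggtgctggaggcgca
SSBP3, chr1:54413441-54413740, reverse strand: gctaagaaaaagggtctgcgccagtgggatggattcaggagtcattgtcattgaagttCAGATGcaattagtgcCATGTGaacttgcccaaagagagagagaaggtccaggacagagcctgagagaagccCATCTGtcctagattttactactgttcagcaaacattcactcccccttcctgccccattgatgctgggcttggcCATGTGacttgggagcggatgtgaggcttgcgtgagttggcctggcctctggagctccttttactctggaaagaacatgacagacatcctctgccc
SSBP2, chr5:81751758-81752057, reverse strand: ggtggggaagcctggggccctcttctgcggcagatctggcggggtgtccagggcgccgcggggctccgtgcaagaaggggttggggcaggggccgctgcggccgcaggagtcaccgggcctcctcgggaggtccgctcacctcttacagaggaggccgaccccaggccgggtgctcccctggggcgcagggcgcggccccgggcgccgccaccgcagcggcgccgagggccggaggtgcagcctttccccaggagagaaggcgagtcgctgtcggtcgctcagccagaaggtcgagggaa
LMO3, chr12:16606113-16606412, reverse strand: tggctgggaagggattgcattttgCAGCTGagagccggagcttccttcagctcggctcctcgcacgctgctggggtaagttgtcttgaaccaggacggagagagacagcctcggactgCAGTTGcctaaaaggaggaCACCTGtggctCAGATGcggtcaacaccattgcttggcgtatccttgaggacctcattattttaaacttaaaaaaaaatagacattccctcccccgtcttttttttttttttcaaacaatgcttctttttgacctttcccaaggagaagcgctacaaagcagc

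The bound SSBP3 window held no E-box of any kind, although 227 of its 300 bases lay in the peak and the summit was among them. Its GC content was 78.7%. The other SSBP3 window, at the start farther upstream, held 4 E-boxes and was not overlapped by a peak. Counted from the start, with the base before it as -1, they were CAGATG at -192, CATGTG at -176, CATCTG at -120 and CATGTG at -46. CAGATG and its reverse complement CATCTG are the E-box form searched for NeuroD1. The SSBP2 window held no E-box. The LMO3 window held CAGCTG at -226, CAGTTG at -132, CACCTG at -113 and CAGATG at -102. The sequence counts covered 35116 windows, without those on a chromosome kept aside and with those of genes that are not protein-coding. Of these windows, 14.7% held CAGATG or CATCTG and 68.7% held a CANNTG. Among the 2921 windows overlapped by a peak, these shares were 8.73% and 56.8%. The median GC content was 58.7% over the same 35116 windows and 68.0% over those with a peak, and its part in these shares was not tested. The 6 genes with a window had 15 windows, of which 2 held CAGATG or CATCTG and 7 held a CANNTG. Those with CAGATG or CATCTG belonged to LMO3 and SSBP3, and among the 6 genes only SSBP3 had a peak on a window. A match of 6 letters is a description and not a binding site, and the sequence under the other 9 peaks was not used here.

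The SSBP genes held 7 of the 10 peaks, and both SSBP2 and SSBP3 were bound within the gene body. In all, 16.1% of 19974 protein-coding genes had a peak in the body. The share was 29.4% among the 3351 genes of at least 100 kb, a class to which SSBP2 (339.0 kb), SSBP3 (188.1 kb) and the unbound LDB2 (397.1 kb) belong. No member of the LMO or LDB families was bound in its body.

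SSBP2, on chromosome 5 from 81412804 to 81751807, had the peak with the highest fold enrichment among the 10. This peak, from 81751295 to 81751611, was 317 bp wide and enriched 16.99-fold, with a −log10 p of 50.3 and a −log10 q of 45.0. It ranked 142 of 6183 by fold enrichment and 129 by −log10 q, and its fold enrichment was 2.50 times the median of the list. At the summit lay 51 ChIP reads, with a 95% interval from 38.0 to 67.1 by the exact Poisson method, and the background implied by the deposited values was 2.0 scaled reads. With the background held fixed, the interval of the reads corresponds to a fold enrichment from 12.7 to 22.2. SSBP2 is read from the reverse strand, and the summit lay 336 bp inside the gene, counted from its outermost start at 81751807. The next start, at 81750848, lay further along the gene than the summit. The peak therefore sat between annotated starts, 196 bp from the first and 447 bp from the second, and touched none of the 4 promoter windows of SSBP2, which overlap each other in part. No other peak lay in the body of this long gene.

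SSBP3, on chromosome 1 from 54225432 to 54413490, had 6 peaks, all within the gene body. Of all protein-coding genes, 15 (0.0751%) had at least 6 peaks in the body, and 8 of these had exactly 6. The body of SSBP3 held 3.19 peaks per 100 kb and that of SSBP2 held 0.295. The cutoff of 6 was the count of SSBP3 itself. The 15 genes had a median length of 370.3 kb, and ranged from 94.2 to 1195 kb. All of them but CUEDC1 belonged to the 3351 genes of at least 100 kb, so the share over all genes understates that of long genes.

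The 6 SSBP3 peaks fell into a group of 3 above the upper quartile of the list and a group of 3 below its median. The strongest, from 54273693 to 54274090, was enriched 14.2-fold (−log10 q 33.9), with 41 ChIP reads at the summit (29.4 to 55.6). A second peak, from 54273011 to 54273262, lay 430 bp beside it and was enriched 12.2-fold (−log10 q 27.6), with 37 reads (26.1 to 51.0). These close peaks lay 132.5 and 133.3 kb downstream of the nearer of the 2 starts in the promoter table, at 54406394, and their counting intervals overlapped widely. The peak from 54342798 to 54343128, at 63.4 kb downstream, was enriched 11.7-fold (−log10 q 24.7), with 34 reads (23.5 to 47.5). By fold enrichment these 3 peaks ranked 272, 474 and 549 of the list.

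The remaining SSBP3 peaks were weaker. The peak at the promoter shown above, from 54406418 to 54406657, was enriched 6.35-fold (−log10 q 7.95), with 19 reads (11.4 to 29.7) and its nearer edge lay 24 bp upstream of the start. The peak from 54314931 to 54315111 was enriched 5.84-fold (−log10 q 6.75), with 18 reads (10.7 to 28.4). The peak from 54356464 to 54356659 had the lowest fold enrichment of the 10, 5.10, with a −log10 q of 7.89 and 25 reads (16.2 to 36.9). The bound promoter was thus not the site with the most reads in SSBP3. The 3 stronger peaks all lay at least 63.4 kb downstream of the start at 54406394. Expressed as fold enrichment, the interval of the promoter peak (3.95 to 9.74) overlapped that of the weakest of the stronger peaks (8.18 to 16.2), and lay below that of the strongest (10.3 to 19.2). RefSeq exons were not used here, so whether a peak lay in an exon or an intron is not given.

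The background at the SSBP3 peaks was higher than at most peaks. It was 1.90, 1.94, 2.04, 2.09, 2.19 and 4.0 at these summits, against a median of 1.31 over the list. The background of 4.0 belonged to the peak with the lowest fold enrichment, whose 25 reads exceeded those of the 2 other weak peaks. The median background was 1.65 over the 648 peaks on chromosome 1 and 2.09 over the 58 other peaks within 5 Mb of the middle of SSBP3. The raised background was thus shared with neighbouring peaks, and its part in the number of peaks called at SSBP3 was not tested. At SSBP2 the background was 2.0, with a median of 1.04 over the 260 peaks on chromosome 5.

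LDB1, on chromosome 10 from 102102088 to 102121442, encodes the LDB protein that LMO and LIM-homeodomain factors share in most tissues. Both of its peaks overlapped another protein-coding gene. The peak from 102056047 to 102056327 was enriched 9.16-fold (−log10 q 11.8), with 18 reads (10.7 to 28.4) over a background of 1.04. It lay 45.8 kb from LDB1, on the side of its 3′ end, and covered 204 of the 300 bases of the ARMH3 promoter window. The peak from 102152181 to 102152405 was enriched 5.94-fold (−log10 q 5.11), with 13 reads (6.92 to 22.2) over a background of 1.31. It lay 30.7 kb from LDB1, on the side of its 5′ end, within NOLC1, the gene for a nucleolar phosphoprotein. No peak lay nearest to LDB1, and its promoter window was free of peaks and of CANNTG. LDB2, the other LDB gene, on chromosome 4, had no peak in its 397.1 kb or within 50 kb. The nearest peak to LDB2 lay 707.8 kb away.

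Of the 4 LMO genes, only LMO1, on chromosome 11 from 8224309 to 8268787, had a peak. It lay from 8206381 to 8206605, 17.7 kb beyond the 3′ end of the gene and 62.3 kb downstream of its start, and no other protein-coding gene was nearer. It was enriched 5.31-fold, and its −log10 q of 3.31 ranked 5675 of 6183 peaks. The summit was covered by 10 ChIP reads (4.80 to 18.4), the fewest among the 10 peaks, and the corresponding fold enrichment from 2.80 to 9.35 spanned the median of the list. This call was therefore among the least certain of the list, and was lost when a −log10 q of at least 5 was required. The LMO1 promoter window held no CANNTG.

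No peak was found at the other LMO genes. LMO2, known from T-cell leukemia and blood development, lies on chromosome 11 from 33858576 to 33892076. Its nearest peak, from 33802643 to 33803036, was 55.5 kb away, just outside the limit, and was enriched 13.5-fold (−log10 q 40.4), with 54 reads. By distance this peak was nearer to FBXO3, at 28123 bp. LMO4, on chromosome 1, had its nearest peak at 115.8 kb, with a fold enrichment of 5.35. LMO3, on chromosome 12, lay 758.7 kb from the nearest peak. The absence of a called peak does not show that NeuroD1 was absent from these genes, since weak sites would not pass the threshold of the list. Just inside the limit lay the LDB1 peak at 45.8 kb, with a fold enrichment of 9.16. The other peaks just outside it were those at 61.3 kb (3.92-fold) and 74.7 kb (11.5-fold) from SSBP3, at 79.6 kb (7.98-fold) from LMO2 and at 99.7 kb (6.36-fold) from SSBP2.

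By the same rule, 40.0% of all protein-coding genes had a peak, so that 4 of 8 genes is close to the share of the genome, and the larger windows of long genes enter this share. When a peak was counted only for its nearest protein-coding gene, 3 of the 8 genes (LMO1, SSBP2 and SSBP3) had one, against 21.3% of all genes. The median fold enrichment of the 10 peaks was 7.76, their median width was 246 bp and their median number of reads was 22. Over the list these medians were 6.79, 220 bp and 17 reads. Of the 10 peaks, 5 lay above the upper quartile of the list and 5 below its median. Only 2 peaks, 1 each at SSBP2 and SSBP3, lay above the 95th percentile of 13.8.

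The other genes of the LIM complex network were examined as a list of 33 genes. By the rule of 50 kb, 13 of the 33 (39.4%) had a peak, again close to the 40.0% of all protein-coding genes. With a peak nearest to the gene the number was 10 (30.3%, against 21.3%) and with a peak in the body it was 6 (18.2%, against 16.1%). The classes of the list differed in their counts. Among the bHLH partners 10 of 12 genes had a peak, and among the LIM-homeodomain genes 2 of 12. None of the 3 GATA genes GATA1, GATA2 and GATA3 and none of the 5 other binding partners had one. These partners were RLIM, the ubiquitin ligase of LDB proteins, DEAF1, RBBP8, CBFA2T3 and RUNX1. With a peak nearest to the gene, the numbers were 8 for bHLH and 1 for LIM-homeodomain genes. In the body they were 5 and 0. The bHLH class includes NEUROD1 itself. The differences between classes were not tested.

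A further SSBP gene, SSBP4 on chromosome 19, had the highest fold enrichment in the network. Its peak from 18419236 to 18419501 was enriched 17.3-fold (−log10 q 34.9), with 35 reads (24.4 to 48.7), and a second peak in the body had a fold enrichment of 7.71. SSBP2, SSBP3 and SSBP4 thus each had a peak in the gene body. The intervals of the reads at the strongest peaks of these genes, 51 at SSBP2, 41 at SSBP3 and 35 at SSBP4, overlapped.

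Among the bHLH partners, NHLH2, the gene for HEN2, had 3 peaks. The strongest, from 115828622 to 115828993 on chromosome 1, was enriched 15.0-fold (−log10 q 35.2), with 41 reads (29.4 to 55.6). It lay 2.4 kb beyond the 3′ end of the gene, on the side away from its promoter. TCF3, the gene for the E-proteins E12 and E47, had a peak 15.1 kb from the gene with a fold enrichment of 13.4, and a peak of 564 bp at the promoter with a fold enrichment of 12.5. NEUROD4, a neurogenic bHLH gene, had 5 peaks within 50 kb, none of them in the gene, of which the strongest had a fold enrichment of 11.0. NHLH1, the gene for HEN1, was singled out after its values were seen. It had 6 peaks within 50 kb, 3 of them nearest to NHLH1, and the one at its promoter had a fold enrichment of 10.9 with 28 reads (18.6 to 40.5). LYL1 and HAND2 also counted as having a peak, but all of their peaks lay nearer to another gene. No peak was found within 50 kb of TAL1 or TAL2.

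A promoter window was overlapped by a peak at 6 of the 29 network genes that have one in the table (20.7%, against 13.7% of protein-coding genes), namely ISL2, NEUROD1, NHLH1, NHLH2, TCF3 and TCF12. Of these bound windows only those of NHLH1 and NHLH2 held CAGATG, and in both the motif lay inside the peak. The bound windows of ISL2, NEUROD1, TCF3 and TCF12 held no CANNTG. Over all windows overlapped by a peak, 8.73% held CAGATG or CATCTG. They are shown since, unlike the bound SSBP3 window, they carry the E-box under the peak, with capitals as above.
NHLH1, chr1:160366821-160367120, forward strand: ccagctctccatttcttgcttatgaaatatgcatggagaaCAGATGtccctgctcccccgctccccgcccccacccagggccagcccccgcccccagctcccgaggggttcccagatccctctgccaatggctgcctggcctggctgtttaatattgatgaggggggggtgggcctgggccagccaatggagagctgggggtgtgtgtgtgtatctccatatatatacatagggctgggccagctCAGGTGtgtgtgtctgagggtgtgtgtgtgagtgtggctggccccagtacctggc
NHLH2, chr1:115841077-115841376, reverse strand: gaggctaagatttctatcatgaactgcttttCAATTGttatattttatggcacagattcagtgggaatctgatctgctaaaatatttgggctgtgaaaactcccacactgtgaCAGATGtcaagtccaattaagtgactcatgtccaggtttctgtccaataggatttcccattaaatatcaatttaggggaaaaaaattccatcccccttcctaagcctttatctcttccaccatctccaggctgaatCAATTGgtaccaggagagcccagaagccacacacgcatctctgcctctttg

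The CAGATG of NHLH1 lay at -210, 52 bp from the summit, and that of NHLH2 at -137, 91 bp from the summit. The peak on this NHLH2 window, from 115841116 to 115841288, was not the 15.0-fold peak given above. Its fold enrichment was 5.98 (−log10 q 5.51), with 14 reads (7.65 to 23.5), and lay below the median of the list. NHLH1 also held CAGGTG at -5, inside the peak and 148 bp from the summit. NHLH2 also held CAATTG at -219, not inside the peak, and at -1, inside the peak. The CAATTG at -1 lay 40 bp from the summit, nearer than the CAGATG.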

How the data were processed

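The peak list deposited for 1 NeuroD1 ChIP library of IMR-32 cells was analysed. Per the labels, the processing notes name BWA 0.7.17, MACS2 2.2.7 and build hg38, while the peak names read macs3. The q threshold and the control used are not given in the sources used here. The authors deposited the fold enrichment at the summit, which is a ratio, the −log10 p and −log10 q, and a score that is the −log10 q scaled to a whole number. A last deposited column, the fold enrichment per bp of width, was not used.

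Gene bodies and promoter windows were those of RefSeq GRCh38.p14, and positions are counted from 1. ChIP reads and background were solved from fold enrichment and −log10 p by the Poisson formula of MACS. The weight of 1 read was scanned from 0.5 to 1.5, and 0.98 (0.9801) gave a solution within 0.01 of the −log10 p for 6182 of 6183 peaks. This weight and the reads are inferred. The solver was tested on simulated data. Intervals are exact Poisson intervals at 95%. Motifs were searched by their letters.

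The named genes are the 8 genes, the network genes by class with the 4 of highest fold enrichment at their own nearest peak, and nearer neighbours. The values of 1 network gene are not reported here, though it enters the counts. The members and lists were chosen with earlier results of these data known. The alternatives were stricter peaks, summits, other distances, the nearest gene, rank by −log10 q, a weight of 1 and other E-boxes. The tools were scipy 1.17.1, numpy 2.4.6, matplotlib 3.10.9 and pandas 2.3.3 under Python 3.11.15.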

Additional observations from a re-analysis of the deposited data

How the results depend on the processing

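The number of the 8 genes with a peak, 4, was 2 with the gene body only and also 2 within 3 kb and within 10 kb, since the LDB1 and LMO1 peaks lie farther away. It was 3 with a −log10 q of at least 5, without LMO1, and 5 within 100 kb. The number of network genes with a peak, 13, was 6 with the gene body only and at most 17, within 100 kb. The number of genes, not windows, with CAGATG or CATCTG in any of their promoter windows, 2, was 4 with any CANNTG. The number of peaks at the 8 genes, 10, lay between 7 and 15. Their median fold enrichment, 7.76, lay between 7.76 and 11.7, the highest value being that of the 7 peaks in gene bodies. The rank of the SSBP2 peak, 142 by fold enrichment, was 129 by −log10 q. With a weight of 1 the median number of reads was 20, against 22, but only 5.52% of peaks were then solved within the tolerance. No paired analysis was possible because a single ChIP library was used. With it and 10 to 51 reads at these summits, counting error limits the order of the peaks, and a site with few reads can be missed.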

Other observations

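Some other genes with as many peaks in the body as SSBP3 were looked at after the values were seen. GLIS1, also on chromosome 1, CUEDC1, TSPAN9, BACH2, MAML3 and GSE1 had 6 each. Of these, CUEDC1 (94.2 kb) was shorter than SSBP3 and the others were longer. MAML3 encodes a Notch coactivator and BACH2 a transcriptional repressor. With the 50 kb on each side, GLIS1 had 10 peaks and CUEDC1 had 9, while BACH2, GSE1, MAML3 and TSPAN9, like SSBP3, had no peak beyond the body. The counts in the body were highest at NBAS, with 27, RBFOX3, with 9, and ALK and MSI2, with 8 each. Gene copy number in these MYCN-amplified cells was not examined, and its part in these counts was not tested.

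NEUROD1 itself had 1 peak, 180 bp from the gene at its promoter, with a fold enrichment of 6.54.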
